A study of Populus tomentosa with 4 samples.

Results

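MiR473 and miR475, microRNA families described mainly from poplars, were both lower in shoot tips than in leaves of Populus tomentosa on the authors' scale. The direction of miR475 turned under a scaling that left out miR159 and miR319, families higher in shoot tips. MiR475 was predicted mostly for pentatricopeptide repeat loci, and miR473 for loci of many classes. The names were chosen by family number, as every listed name of the families miR473 to miR481, miR1445 and miR1447 to miR1450. Of these 14 families, 2 had names in the table, with 4 names and 3 distinct mature sequences among 193 names and 107 sequences in all. The other 12 families had 0 names listed. The table holds only microRNAs that passed the authors' selection, so their levels are not known here.

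The samples were shoot tips (SAM in the labels) and the leaves around them from Populus tomentosa, Chinese white poplar, and small RNA was sequenced in 2 libraries of each tissue. The trees were 20 years old and grew outdoors, and the labels record no treatment or genotype that separates the tissues. The series set out to compare the small RNAs of the apex and the leaf. Whether each library stands for a different tree is not stated, so the spread between libraries may be technical. No messenger RNA was measured, so the tissues could not be checked by marker genes.

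A plant microRNA is cut as a short duplex from a hairpin precursor, and either strand, named 5p or 3p after the arm it comes from, can enter an Argonaute protein and guide the cleavage of transcripts with a nearly complementary site. MiR475 is known in poplar for transcripts of pentatricopeptide repeat (PPR) proteins, a large plant family that binds and processes RNA in mitochondria and chloroplasts. MiR473 has been linked in poplar to GRAS transcription factors, the family of SCARECROW and of the DELLA repressors of gibberellin response.

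The mature sequences of miR473a-5p and of the miR475 names are shown because miR475a-3p and miR475b-3p cannot be told apart by theirs, and because part of miR473a-5p recurs in another family. They are given 5′ to 3′ as deposited, with bases 2 to 8, the seed, in capitals.
miR473a-5p: aCUCUCCCucaaggcuucca
miR475a-3p: uUACAGUGcccauugauuaag
miR475b-3p: uUACAGUGcccauugauuaag
MiR473a-5p is 20 nt long and starts with A, whereas the miR475 sequence, at 21 nt, starts with U. Their GC contents were 55% for miR473a-5p and 38.1% for miR475. Neither seed occurred as bases 2 to 8 of another listed sequence. The names miR475a-3p and miR475b-3p have the same sequence, so both report on 1 mature RNA.

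All 4 names were lower in shoot tips past the authors' FDR (an adjusted p) of 0.05, although the miR475 names reverse when miR159 and miR319 are taken out of the listed total, and 0 of the 4 then stay lower at 2-fold. That was the direction of 62.2% of all 193 listed names, each of which had passed the same threshold. Counted by sequence, all 3 were lower, against 57.9% of the 107 sequences. Leaving miR159 and miR319, the most abundant families of the shoot tips, out of that total would move every log2 difference up by 2.57, and out of a total of 1000000 by 0.72. Both families were higher in shoot tips, and leaf-high families such as miR396 were kept, so this choice fixed the upward direction in advance. The listed total is not the depth, which is unknown. Levels are the authors' normalized abundance on a scale that is not stated, with 1 pooled value per tissue. Reads of the 2 libraries behind each pooled value were recovered from it, as whole multiples of the level of 1 read, and the libraries are called A and B because their labels could not be matched. All library values rest on 1 split of the reads. It was shared by 6 of the 9 pairs of levels that fitted in shoot tips and by 8 of 12 in leaves, and values under the other pairs are not given. The libraries stood apart by class in shoot tips, where 2 of 38 known sequences and 24 of 32 numbered sequences, those without a family name, were higher in A; in leaves the counts were 11 of 42 and 14 of 26. All 4 members were higher in B in both tissues, and the part of this pattern in the results was not tested.

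MiR473a-5p had the larger difference of the strands of miR473. Its pooled level in the authors' deposited table was 9.25 in shoot tips, against 109 in leaves. Its recovered levels were 7.08 in shoot tip library A (9 reads) and 11.4 in shoot tip library B (12 reads), against 82.1 in leaf library A (93 reads) and 135 in leaf library B (102 reads). Both shoot tip libraries lay far below both leaf libraries, and the exact Poisson intervals (95%, counting error only) of 3.24 to 13.4 and 5.9 to 20 in shoot tips did not meet those of 66.2 to 101 and 110 to 164 in leaves. The pooled leaf level was 11.8 times that of shoot tips, and over the 4 pairs of a leaf and a shoot tip library the ratio ran between 7.19 and 19.1. Set as shoot tips over leaves, its log2 fold change was -3.51 in the authors' deposited table, with an FDR of 2.63e-07. In such bulk tissue, fewer cells that hold a microRNA and less of it per cell cannot be told apart.

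MiR473a-3p was the more abundant strand in both tissues. In the authors' deposited table it had 35 in shoot tips and 227 in leaves. The shoot tip libraries A and B were nearly equal at 33.8 (43 reads) and 36.2 (38 reads), while the leaf libraries A and B differed, at 139 (157 reads) and 316 (238 reads). The intervals were 24.5 to 45.6 and 25.6 to 49.6 in shoot tips, against 118 to 162 and 277 to 359 in leaves, so the leaf libraries differed from each other by more than counting error. Again both shoot tip libraries were below both leaf libraries. The pooled leaf level was 6.49 times that of shoot tips, with ratios between 3.83 and 9.34 over the pairs of libraries, and the authors' deposited table gives a log2 fold change of -2.67 and an FDR of 1.46e-06.

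The gap between the leaf libraries of miR473a-3p was wide for this tissue. On the log2 scale the libraries differed by 0.10 in shoot tips and by 1.19 in leaves. The median size of that difference over sequences with at least 20 reads was 0.69 in shoot tips (70 sequences) and 0.32 in leaves (68 sequences). MiR473a-5p differed by 0.69 in shoot tips and 0.72 in leaves, above the leaf median and at the shoot tip median. Without leaf library B the log2 difference of miR473a-3p was -1.98, and without leaf library A it was -3.17. On the authors' scale its direction therefore did not rest on either library. Single libraries were not left out under the other scalings, where the pooled difference fell as far as -0.13.

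The 5p strand made up a minority of the miR473 reads in every library. Its share was 17.3% (9 of 52 reads) and 24% (12 of 50) in shoot tip libraries A and B, against 37.2% (93 of 250) and 30% (102 of 340) in leaf libraries A and B. The exact binomial intervals (95%, Clopper-Pearson) were 8.23% to 30.3% and 13.1% to 38.2% in shoot tips, and 31.2% to 43.5% and 25.2% to 35.2% in leaves. In the split used, shares in both shoot tip libraries were below those in both leaf libraries. The interval of shoot tip library A lay below that of leaf library A, and the intervals of the other pairs overlapped. An exact two-sided permutation test over the 4 libraries gave p = 0.333, the smallest value its 6 arrangements allow, so these libraries could not test the difference.

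MiR475 was the more abundant family and, on the authors' scale, had the smaller tissue difference. In the authors' deposited table miR475a-3p had 349 in shoot tips and 803 in leaves, and miR475b-3p had 358 in shoot tips and 826 in leaves. For miR475a-3p the libraries A and B stood at 320 (406 reads) and 379 (398 reads) in shoot tips, against 772 (875 reads) and 834 (628 reads) in leaves. Its intervals were 289 to 352 and 342 to 418 in shoot tips, and 722 to 825 and 770 to 902 in leaves. For miR475b-3p they stood at 327 (415 reads) and 388 (408 reads) in shoot tips, against 785 (890 reads) and 866 (652 reads) in leaves. The intervals of miR475b-3p were 296 to 360 and 352 to 428 in shoot tips, against 735 to 839 and 801 to 935 in leaves. The libraries of a tissue were close to each other for both names, and the tissues did not overlap.

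The pooled leaf level was 2.3 times that of shoot tips for miR475a-3p and 2.31 times for miR475b-3p. Over the pairs of libraries these ratios ran between 2.04 and 2.61 for miR475a-3p and between 2.02 and 2.65 for miR475b-3p. Both names have a log2 fold change of -1.20 in the authors' deposited table, with an FDR of 0.00132 for miR475a-3p and 0.00124 for miR475b-3p. When the listed total omitted miR159 and miR319, the log2 differences turned to 1.37 for miR475a-3p and 1.36 for miR475b-3p, while miR473a-3p and miR473a-5p shrank to -0.13 and -0.99, so that the miR475 names then had the larger differences. Out of a total of 1000000, a setting chosen after seeing the data, they were -0.48 for miR475a-3p and -0.49 for miR475b-3p, under 2-fold. Between libraries miR475a-3p and miR475b-3p each differed by 0.25 on the log2 scale in shoot tips, and by 0.11 (miR475a-3p) and 0.14 (miR475b-3p) in leaves, each below the median of its tissue.

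Since the miR475 names share their sequence, their small difference is not a difference of mature RNAs. MiR475b-3p had 9 and 10 reads more than miR475a-3p in shoot tip libraries A and B, and 15 and 24 reads more in leaf libraries A and B. Its pooled level was higher by 2.38% in shoot tips and by 2.81% in leaves. How reads that match several precursors were assigned is not given in the sources used here, so the values of the 2 names are uncertain one by one.

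**Figure D1:**
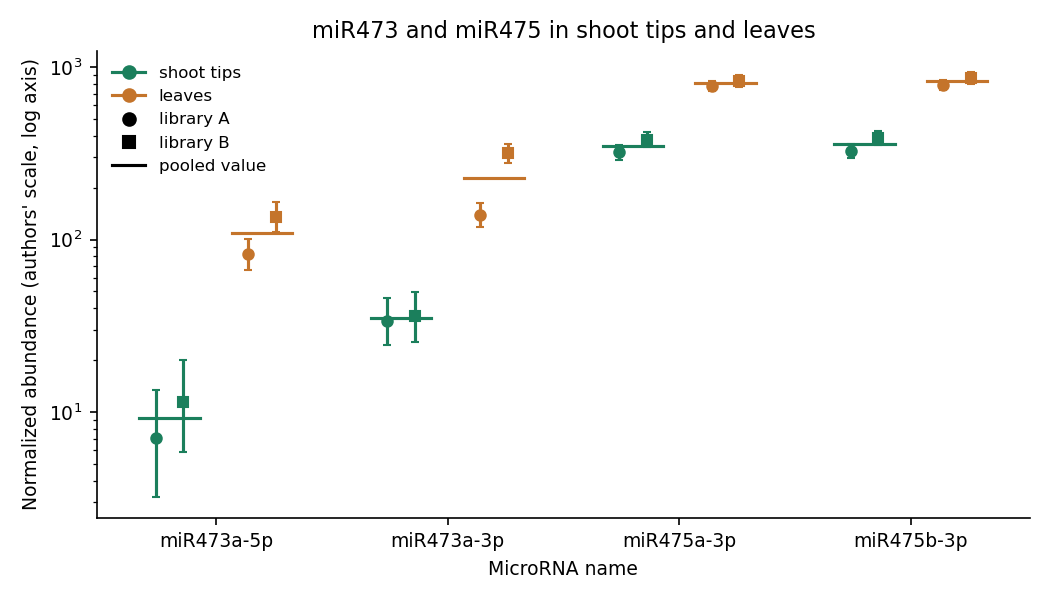
Normalized abundance (authors' scale, log axis) of the 4 names in shoot tips (green) and leaves (orange); circles and squares are the recovered libraries A and B with exact 95% Poisson intervals, and horizontal lines are the pooled values. On this scale both shoot tip libraries of every name lie below both leaf libraries (the pooled miR475 difference reverses when the listed total omits miR159 and miR319), with a wide gap for miR473a-5p (9.25 in shoot tips, 109 in leaves) and a narrow one for miR475b-3p (358 in shoot tips, 826 in leaves).

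For all 4 names both shoot tip libraries were below both leaf libraries, as they were for 62.9% of the 170 listed names whose reads could be recovered in both tissues and compared. Ordered by leaf level, miR475b-3p and miR475a-3p ranked 28 and 29 of 193 names, miR473a-3p ranked 62 and miR473a-5p ranked 82. In shoot tips the same names ranked 42, 44, 85 and 123. The order of the members was the same in both tissues, miR475 above miR473a-3p above miR473a-5p. Library levels of neighbours did not overlap except between the miR475 names, but in leaves miR473a-5p in library B, at 135, came close to miR473a-3p in library A, at 139.

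On the authors' scale the differences of miR473 were moderate beside the rest of the table, and those of miR475 were among the smallest. Counted from the most leaf-biased name, miR473a-5p ranked 82, miR473a-3p 100, miR475b-3p 115 and miR475a-3p 116 of 193. By size in either direction, counted from the smallest, miR475a-3p ranked 7, miR475b-3p 8, miR473a-3p 47 and miR473a-5p 80. Taken from the authors' deposited table, the log2 fold changes had a median of -1.94 over the 4 names and -2.67 over the 3 sequences. Over all names lower in shoot tips it was -4.46 (120 names), and over the sequences lower in shoot tips it was -4.41 (62 sequences).

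**Figure D2:**
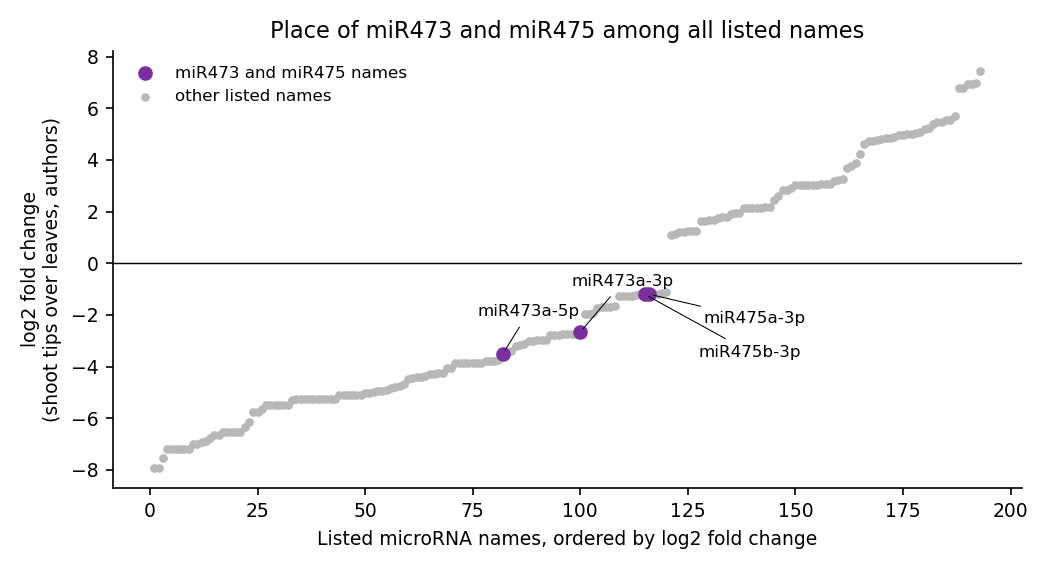
The authors' log2 fold change (shoot tip level over leaf level) for all 193 listed names, ordered from the most leaf-biased; purple points are miR473 and miR475 names and grey points the other names. The members lie in the upper part of the lower branch, between -3.51 for miR473a-5p and -1.20 for the miR475 names (1.37 and 1.36 when the listed total omits miR159 and miR319). No listed name lies near 0, the nearest being miR396g-5p at -1.0959 with an FDR of 0.00102. Every listed name passed the FDR threshold, and whether the authors also set a fold threshold is not stated.

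The median log2 fold change of the 3 sequences, -2.67, is the value of miR473a-3p. The names of other known families nearest to it were miR6462b, miR6462c-3p and miR6462d, which have the same sequence and so report on a single mature RNA. Each had 7.43 in shoot tips and 52.2 in leaves in the authors' deposited table, with a log2 fold change of -2.75 and an FDR of 0.00229. The gap was 0.078 on the log2 scale, measured over 2 tissues only, so the likeness is a weak description. MiR393c had the same shoot tip level as miR473a-5p, 9.25 from 9 and 12 reads, but its leaf level in the authors' deposited table was 214.

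Part of miR473a-5p also occurs in miR1446, another poplar family. The shared stretch of 11 nt, in capitals, covers bases 2 to 12 of miR473a-5p and bases 10 to 20 of the sequence of miR1446a to miR1446e.
miR473a-5p: aCUCUCCCUCAAggcuucca
miR1446: uucugaacuCUCUCCCUCAA
No other listed sequence shared more than 7 nt with miR473a-5p or miR475. MiR1446 went the other way, with log2 fold changes between 1.65 and 2.17 in the authors' deposited table, so the strand and its partial match differ in tissue direction. The seed of miR473a-5p lies within the shared stretch, but in miR1446 these bases sit toward the 3′ end, not at bases 2 to 8.

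The table also lists predicted target loci, with P. trichocarpa-style identifiers and Swiss-Prot descriptions of the best-matching protein. The members had 434 distinct loci of 10305 in all. MiR475a-3p and miR475b-3p had the same 157 loci, miR473a-5p had 141 and miR473a-3p had 137. The strands of miR473 shared 1 locus, POPTR_0015s05440, which has no description, and miR475 shared 0 loci with either strand. Each set holds few of the 10305 loci, so low overlaps like these do not show distinct target sets. These loci are predictions, and no level of a target transcript was measured.

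PPR proteins made up most of the predicted loci of miR475. They were 100 of its 157 loci (63.7%), against 199 of the 10148 loci predicted only for other microRNAs (1.96%), and 70.4% of its 142 loci with a description. In other words, 33.4% of the 299 PPR loci in the whole table were predicted for this 1 sequence. Of the 102 loci of miR475 predicted for no other family, 62 were PPR loci (60.8%). The strands of miR473 had 2 PPR loci each, 1.42% of those of miR473a-5p and 1.46% of those of miR473a-3p.

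No other sequence in the table came near that share. The next were miR6427-5p with 15.7% (19 of 121 loci), a numbered microRNA with 11.8% of its loci, and miR396c, miR396d and miR396e with 11.2% (18 of 161). The median over the 104 other sequences was 1.92%, and 14 of them had none. The miR473 strands lay near that median, at places 66 and 68 of 107.

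**Figure D3:**
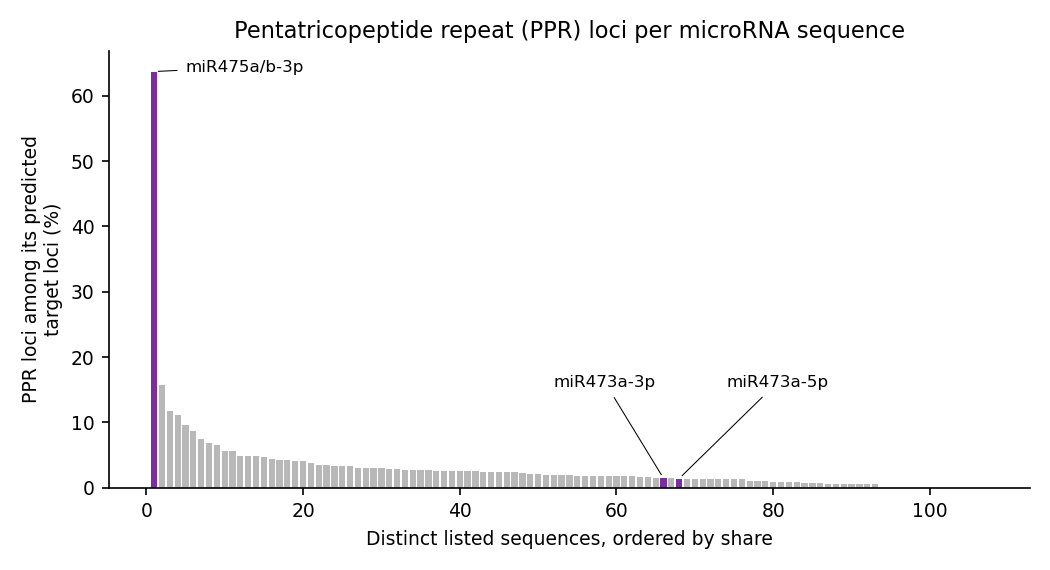
Share of PPR loci (percent) among the predicted loci of each of the 107 distinct sequences, ordered from the highest; purple bars are miR475, miR473a-3p and miR473a-5p. MiR475 stands at 63.7%, the next sequence at 15.7%, and both miR473 strands are among the low bars at 1.46% and 1.42%.

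Mitochondrial matches were common among the PPR loci of miR475. Descriptions that place the matching protein in mitochondria numbered 52 of its 100 PPR loci (52%), against 52 of the other 199 (26.1%). Chloroplast descriptions numbered 10 (10%), against 28 of the other 199 (14.1%). The rest, 38 loci of miR475 and 119 other loci, named neither organelle. The 100 loci carried 68 different descriptions and the other 199 carried 150.

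The description that recurred most was At1g12700. Loci described as the mitochondrial protein At1g12700 numbered 23, and all 23 in the whole table were predicted for miR475. The same held for the 6 loci described as At1g62930, annotated as chloroplastic, and for the 2 loci each described as At1g12300 and At1g63130. With 1 locus each for At1g62680 and At1g63080, loci whose Arabidopsis match lies in the groups At1g12, At1g62 and At1g63 numbered 35 of the 100, against 0 of the 199 PPR loci predicted for other microRNAs alone. That grouping was chosen after the descriptions were seen. It held 29 of the 52 mitochondrial loci of miR475, which is 82.9% of the 35, while 23 of the other 65 PPR loci of miR475 were described as mitochondrial (35.4%). In Arabidopsis, At1g12700 and At1g62930 are known as processing factors of mitochondrial transcripts, from a group of PPR proteins related to restorers of fertility.

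The other 65 PPR loci of miR475 matched a wide range of Arabidopsis proteins. Among the loci predicted by both miR475 names, the first by identifier were POPTR_0001s02160, described as At1g52620, POPTR_0001s05700, described as the mitochondrial protein At2g22410, and POPTR_0001s24340, described as At5g59900. Of these 65 loci, 47 (72.3%) were predicted for no other family, against 15 of the 35 in the recurrent groups (42.9%). That difference was not tested, since related loci are not independent.

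Some PPR loci of miR475 had neighbouring identifiers. Identifiers in the table count in steps of 10 along a scaffold, and 15 of the 100 loci stood next to another PPR locus of miR475 in that count (15%). Of the other 199 PPR loci, 4 stood next to another of their own (2.01%), as did 2 of the other 57 loci of miR475 (3.51%). These shares depend on how many loci a set holds, and over all 10305 listed loci the share was 44.5%. The runs of 3 were POPTR_0005s04750 to POPTR_0005s04770, described as At1g12300 or At1g12700, and POPTR_0005s05170 to POPTR_0005s05190 and POPTR_0030s00250 to POPTR_0030s00270, all described as At1g12700. Runs of 2 began at POPTR_0004s07290, POPTR_0005s04060 and POPTR_0017s02730. By the scaffold number in the identifier, scaffold 5 held 15 of the 100 loci (15%), against 9.55% of the other 199 PPR loci and 6.74% of the 10006 other listed loci. Scaffold 6 held 13, scaffold 10 held 8 and scaffold 4 held 7, and the 100 loci lay on 25 scaffolds in all. None of the identifiers matched the reference gene table, so no coordinates are given.

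The PPR loci of miR475 also appeared several times in the table under 1 name. Of the 100 loci, 68 had more than 1 line, with a mean of 2.15 lines and at most 7. Of the other 57 loci of miR475, 1 did (1.75%). For other sequences 27 of 359 pairs of a sequence and a PPR locus had several lines (7.52%), and 452 of 13601 pairs with other loci did (3.32%). For the strands of miR473, 5 of 141 loci (3.55%) of miR473a-5p and 10 of 137 loci (7.3%) of miR473a-3p had several.

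Several lines were common where miR475 met a PPR locus and rare in each of the other sets. The locus with 7 lines was POPTR_0014s03970, described as At1g19290, and that with 5 was POPTR_0017s02740, described as At1g09680. Among loci of the At1g12, At1g62 and At1g63 groups 29 of 35 had several lines (82.9%), against 39 of the other 65 (60%). Both miR475 names had the same 273 lines. The table does not state what a repeated line stands for, and its lines give no position in the transcript, so whether they are separate sites or separate transcripts was not tested.

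**Figure D4:**
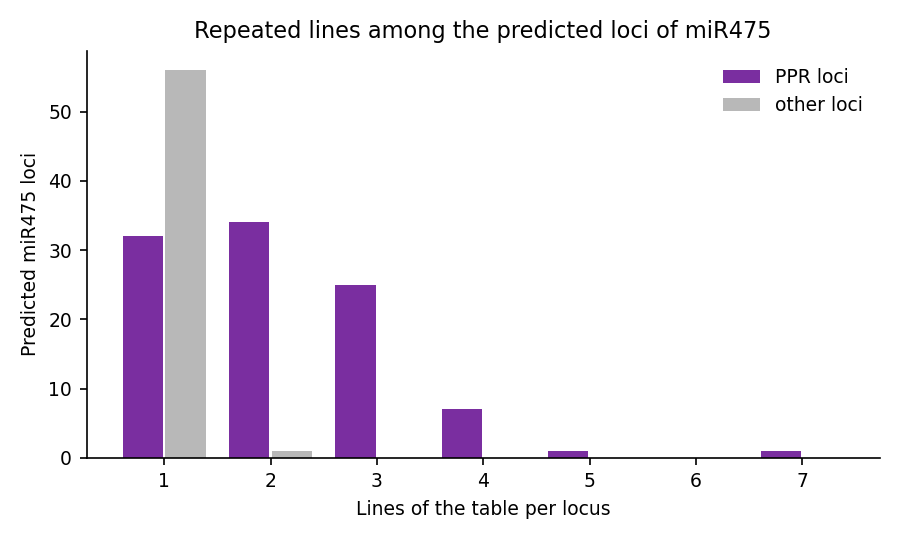
Number of predicted miR475 loci by how many lines each has in the table, for 100 PPR loci (purple) and 57 other loci (grey). Of the PPR loci, 32 have 1 line, 34 have 2, 25 have 3 and 7 have 4, whereas 56 of the other loci have 1.

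MiR475 shared some PPR loci with microRNAs that were, on the authors' scale, higher or lower in shoot tips. Of its 100 PPR loci, 38 were predicted for at least 1 other family or numbered sequence, 24 for names higher in shoot tips and 22 for other names lower in shoot tips. The same shares over all listed loci are not given, so these counts are not read as high or low. The most shared were 7 loci with miR6427, which is 4.46% of the miR475 loci and 5.79% of those of miR6427. Then came 6 loci with the 3′ arm of miR394, 3.82% of the miR475 loci and 3.31% of those of miR394, and 4 loci each with a pair of numbered microRNAs. All of these shared loci were PPR loci. MiR159 shared 3 loci with miR475, of which 1 was a PPR locus.

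Among loci shared with miR394 were the neighbours POPTR_0005s05170 to POPTR_0005s05190, and 3 loci, POPTR_0007s08110, POPTR_0014s11290 and POPTR_0019s13320, were predicted for miR475, miR6427 and miR394 alike. In the authors' deposited table miR6427-5p has a log2 fold change of -1.15, close to miR475, while miR394 has 3.68 to 3.87. With the shift of 2.57 given above, miR475 would have the sign of miR394. MiR475 shared 1 locus with miR482, known for disease resistance genes, and 0 with miR171 and with miR396. Counts this low say little, since each family held few of the listed loci.

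The remaining 57 loci of miR475 fell into no large class. They included 5 transporters (3.18% of its loci, against 3.56% of other loci), 3 F-box proteins (1.91% against 1.09%), 2 disease resistance proteins (1.27% against 3.35%) and 2 ubiquitin ligases. The transporters included POPTR_0003s19660 and POPTR_0003s19680, both described as ABC transporter C family member 3. MiR475 had 0 loci described as GRAS proteins. Both loci described as cytochrome b561 and DOMON domain-containing protein At5g35735 in the table were its own.

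MiR473a-5p had the GRAS loci of the members. Of its 141 loci, 4 were GRAS proteins (2.84%), against 40 of 10164 other loci (0.394%). They were POPTR_0002s03740, described as SCARECROW, a factor of radial patterning in roots and shoots, POPTR_0012s09550 and POPTR_0015s10310, both described as the DELLA protein RGL1, and POPTR_0014s11510, described as the DELLA protein RGL2. The table holds 3 RGL1 loci in all, so miR473a-5p was predicted for 2 of them. MiR171, the family best known for GRAS targets, had 10 GRAS loci among its 363, and 0 of the 4 GRAS loci of miR473a-5p were among them. The table holds 44 GRAS loci in all, so an overlap of 0 among only 4 loci says little.

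The RGL1 loci were 2 of the 9 loci that miR473a-5p shared with miR1446, the family that holds part of its sequence. Those 9 are 6.38% of the loci of miR473a-5p and 5.56% of those of miR1446, and no listed family shared more with this strand. Among the others were POPTR_0010s23970, described as the trihelix factor ASIL1, a repressor of embryonic genes in Arabidopsis seedlings, and POPTR_0008s01140, described as the largest subunit of RNA polymerase II. MiR482 shared 5 loci with miR473a-5p, including POPTR_0001s43710, described as the disease resistance protein RPS2, miR396 shared 3 and miR1444 shared 2. The other 2 GRAS loci, SCARECROW and RGL2, were predicted for no other family.

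Other classes of miR473a-5p stood on small counts. F-box proteins, the substrate subunits of ubiquitin ligases, were 5 of its loci (3.55%, against 1.07% of other loci), and disease resistance proteins were 6 (4.26% against 3.31%). The class of leucine-rich repeat proteins or receptor-like kinases had 5 loci (3.55%, against 6.68% of other loci), of which 2 are also F-box proteins and 2 are described as intracellular Ras-group-related LRR protein 9. Kinases had 1 locus, described as PERK13 (0.709% against 9.36%). Transporters were 5 (3.55%, the same as in other loci). Peroxidase C1A led its descriptions, with all 4 loci of the table, followed by TMV resistance protein N (3 of 53), RGL1 (2 of 3), early nodulin-75 (2 of 4) and the exocyst subunit EXO70B1 (2 of 4). POPTR_0007s04700, described as the ultraviolet-B receptor UVR8, and 2 loci described as the potassium channel KAT3 were also predicted. These 3 loci were chosen after their descriptions were seen.

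MiR473a-3p also had loci of several classes, with 0 GRAS loci. Kinases were 9 of its 137 loci (6.57%, against 9.27% of other loci), transporters 9 (6.57% against 3.51%) and the class of leucine-rich repeat proteins or receptor-like kinases 7 (5.11% against 6.66%). Most of the kinase loci were also in this last class, so the counts overlap. Disease resistance proteins were 6 (4.38% against 3.3%), MYB factors 3 (2.19% against 0.58%) and zinc finger proteins 3 (2.19% against 1.09%). Its leading descriptions were 7-deoxyloganetin glucosyltransferase (3 of 20 loci in the table), proteasome subunit alpha type-6 (3 of 3) and RPP13-like protein 1, a putative disease resistance protein (3 of 28). The CMP-sialic acid transporter 5 and the mitochondrial RNA polymerase 1B followed with 2 of 2 each.

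Some developmental and defence genes were among the loci of miR473a-3p, named here after their descriptions were seen. They were POPTR_0012s04470, described as auxin efflux carrier component 1, POPTR_0003s14200, described as auxin response factor 9, POPTR_0002s17750, described as the jasmonate response factor MYC4, and POPTR_0004s13570, described as the flagellin receptor FLS2. POPTR_0015s05340, described as KAN1, a factor of the lower leaf side, was predicted for miR473a-3p and for miR171, with which this strand shared 3 loci. It also shared 7 loci with a group of numbered names of 1 sequence (5.11% of its loci and 5.22% of theirs), 6 with another numbered name, and 3 each with miR3627, miR394 and miR482.

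**Figure D5:**
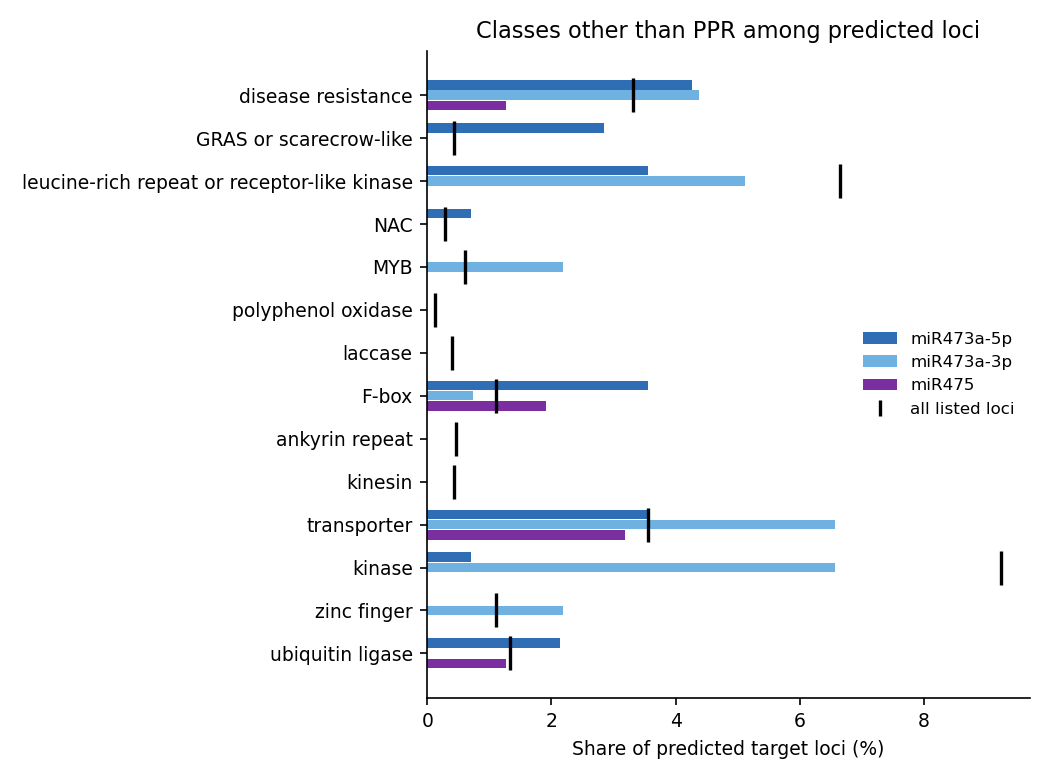
Share of predicted loci (percent) in annotation classes other than PPR, for miR473a-5p (dark blue), miR473a-3p (light blue) and miR475 (purple), with a black tick at the share over all listed loci. GRAS loci appear for miR473a-5p alone among the members (2.84%), and kinases make up 0.709% of the loci of miR473a-5p, 6.57% of those of miR473a-3p and none of those of miR475.

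Most loci of each member were predicted for no other family, at 65% for miR475, 64.5% for miR473a-5p and 60.6% for miR473a-3p. The median of that share over the 104 other sequences was 62.4%, between 23.1% and 82.3%, so the members lay near the middle. Of the 141 loci of miR473a-5p, 32 were also predicted for other names higher in shoot tips and 22 for other names lower. Of the 137 loci of miR473a-3p these counts were 26 and 36, and of the 157 loci of miR475 they were 32 and 36. The shares of all listed loci predicted for such names are not given, so these counts are also not read as high or low. Loci without a description numbered 32 for miR473a-5p, 27 for miR473a-3p and 15 for miR475. The shares of classes rest on few loci except for the PPR class of miR475.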

How the data were processed

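The deposited table of the authors' comparison gave each microRNA name 1 signal per tissue, a normalized abundance that the authors pooled from both libraries on a scale that is not stated. It also gave the authors' log2 fold change, with shoot tips as numerator, and their FDR, a p-value the authors adjusted. How reads were trimmed, aligned, counted and scaled, and how targets were predicted and differences tested, is not stated in the sources used here. Total RNA was made into Illumina small RNA libraries, per the labels' protocols.

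Members were taken by family number and read once per name. They, and the lists and classes, were chosen with earlier results of these data known. The sequence of miR473a-3p is not reported here. Target loci were counted once per sequence, and classes were read from words in the descriptions; those of the kinase and leucine-rich repeat classes were refined after values were seen. The table had 27252 lines, of which 1215 repeated another. Named loci were the first 3 loci of the leading class by identifier, the 5 commonest descriptions per sequence and the loci of the families with most shared loci; others are marked as chosen after their descriptions were seen. The names of like pattern were the 3 of other known families nearest in log2 fold change.

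Each signal up to 5000 was solved into whole reads of 2 libraries, with a step each, taking it as an equal mean of both; 178 of 178 names in shoot tips and 178 of 179 in leaves were solved. Of 9 pairs of steps that fitted in shoot tips and 12 in leaves, 6 and 8 gave the members the same split. The coarsest was used, so 1 read was worth 0.787 and 0.952 in shoot tips and 0.882 and 1.33 in leaves; finer steps would mean more reads. The method was tested on simulated data that included signals of 1 read from each library. At the steps used, no listed leaf signal was that of 1 read, so this test could not decide between the pairs of steps. Library depths are unknown. Python 3.11.15, numpy 2.4.6, scipy 1.17.1, pandas 2.3.3 and matplotlib 3.10.9 were used.

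No test of tissues was added, since every listed name was selected by FDR and the planned fits needed a value per library. Alternatives covered pseudocounts of 1 and 5, scaling, filters, the FDR threshold, single libraries and the loci counted.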

Additional observations from a re-analysis of the deposited data

How the results depend on the processing

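Of the 4 names, 4 were lower and 0 higher in shoot tips. The counts stayed the same at an FDR below 0.01 and with signals of at least 5 or 50 in the higher tissue (4 lower each). By sequence 3 were lower, and at 2-fold by the signals 4 were (an alternative chosen after seeing the data). These filters removed no member, with leaf signals of 109 or more, FDRs up to 0.00132 and log2 fold changes of -1.20 or lower. They were therefore no test of the direction. The scaling moved the values most. When the listed total omitted miR159 and miR319, a total which is not the depth, every log2 difference moved up by 2.57, and at 2-fold 0 names were lower and 2 higher. MiR475a-3p and miR475b-3p then reversed to 1.37 and 1.36, while miR473a-3p and miR473a-5p stood at -0.13 and -0.99. The upward sign of the shift was fixed by the choice of these families, both higher in shoot tips. With both left out of a total of 1000000, chosen after seeing the data, the shift was 0.72. Then 2 names were lower at 2-fold, and the differences were -1.98 for miR473a-3p, -2.83 for miR473a-5p, -0.48 for miR475a-3p and -0.49 for miR475b-3p. Leaving out single libraries gave -3.17 to -1.98 for miR473a-3p, -3.94 to -3.15 for miR473a-5p, -1.33 to -1.08 for miR475a-3p and -1.34 to -1.09 for miR475b-3p. The PPR share of miR475 stayed between 63.7% and 70.4%, and was 60.8% among its loci of no other family. Counting loci of at least 2 names, or pairs of sequence and locus, could not change it, because both names have the same sequence and loci. The other class shares were recomputed among described loci and among loci of no other family, which gave 84 values. Of these, 2 left their interval, transporters of miR475 and disease resistance of miR473a-3p, both at 0 among loci of no other family. Many of the shares were 0 among all loci and could not change in a part of them, so the count says little about stability. No paired analysis was possible because each tissue has a single pooled column without replicate number. Count models, limma and a replicate block were not run: the table gives no library values, and recovered reads, of unknown depth and library label, cover only names already selected by FDR. With 9 and 12 shoot tip reads, miR473a-5p is limited most by depth.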
